A study of Mus musculus with 6 samples.

Results

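The genes described here are 10 oncofetal and hepatoblast genes: Afp, Igf2, Dlk1, Gpc3, Igf2bp1, Igf2bp2, Igf2bp3, Lin28b, Hmga2 and Mdk. They were chosen by name and not by a rule on their values, but with earlier results of these data known. Clariom S mouse arrays carried a probe set, the group of probes that reads 1 gene, for 8 of the 10, among 22206 probe sets in all. Igf2bp1 and Igf2bp2 had no probe set named for them and were not analysed here. Each of the 8 genes had 1 probe set.

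The series held 6 arrays, 3 of AAV-control samples (arrays 48, 49 and 50) and 3 of AAV-PIK3CD samples (arrays 51, 52 and 53), and the labels do not tie samples to animals. Per the study's methods the animals were male C57BL/6 mice injected as young adults with a hepatocyte-directed adeno-associated virus (AAV) and killed some weeks later. The AAV-PIK3CD vector carried mouse Pik3cd, the delta catalytic subunit of PI3K, under the TBG promoter, which is active in hepatocytes, so other liver cells were not meant to express it. The control vector is called empty in the labels, while the methods also describe an EGFP vector under the same promoter, and the groups may differ in EGFP as well. The labels call the tissue tumour, their extraction note speaks of a cell culture, and the study elsewhere describes mouse liver. All 11 measured hepatocyte markers lay above the array median in the controls, and their summed signal (log2) read 15.90 to 15.94 in AAV-control and 15.90 to 15.92 in AAV-PIK3CD. Pik3cd itself read 4.66, 4.34 and 4.48 in AAV-control and 4.78, 5.14 and 4.86 in AAV-PIK3CD, a difference of 0.43 (SE 0.14) that was higher in 3 of 3 arrays (exact permutation p = 0.1) but did not pass over all probe sets (adjusted p = 0.673 by rank products and 0.932 by limma). Its level lay above the array median on 2 of the 6 arrays.

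Oncofetal genes are active in the fetal liver, are shut off in the liver after birth and are known to return in hepatoblastoma and hepatocellular carcinoma. Afp codes for the main plasma protein of the fetus, and Igf2, Dlk1 and Mdk code for secreted or membrane-bound growth and differentiation signals. The Igf2bp proteins and LIN28B bind RNA, and LIN28B blocks the maturation of let-7 microRNAs, which in turn repress Lin28b, Hmga2 and Igf2bp transcripts. The arrays allow the question whether these fetal genes read higher where the PI3K subunit was supplied.

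Promoter sequence is shown for Afp, the gene whose groups did not overlap, and for Alb, its relative in the adult liver. The pair are neighbours on mouse chromosome 5, and both promoters are known targets of the hepatocyte factor HNF1. The windows below run from 250 bases before to 50 bases after the start of each gene (RefSeq, GRCm38.p6), with Afp at chr5:90490464-90490763 and Alb at chr5:90460620-90460919, both on the plus strand. Capitals mark GTTAAT, the core of the HNF1 recognition sequence, searched on both strands.
Afp: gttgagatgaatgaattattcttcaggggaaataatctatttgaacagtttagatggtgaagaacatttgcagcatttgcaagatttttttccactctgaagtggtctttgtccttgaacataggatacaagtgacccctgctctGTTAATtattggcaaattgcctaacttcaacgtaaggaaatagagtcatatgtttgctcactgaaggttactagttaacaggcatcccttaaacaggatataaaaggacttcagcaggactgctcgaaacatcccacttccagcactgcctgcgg
Alb: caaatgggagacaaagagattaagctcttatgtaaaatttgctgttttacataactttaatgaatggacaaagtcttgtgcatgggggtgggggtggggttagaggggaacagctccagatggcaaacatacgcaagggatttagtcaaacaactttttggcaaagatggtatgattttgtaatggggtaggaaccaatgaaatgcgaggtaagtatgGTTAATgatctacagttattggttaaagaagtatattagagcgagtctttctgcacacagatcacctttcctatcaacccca

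The match began 105 bases before the start of Afp and 32 bases before that of Alb, and the windows of the related genes Afm and Gc held it as well. GTTAAT stood in 7.1% of all 32851 promoter windows. Of the 11 windows listed for 8 of the 10 members (Igf2 has 4), 1 held it, that of Afp. Windows for Igf2bp1 and Mdk were not used here. A match of letters is a description and no measure of binding.

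The let-7 microRNAs, which link Lin28b, Hmga2 and the Igf2bp genes, are shown for the seed (bases 2 to 8, in capitals) through which they find their targets. All 9 arms of the let-7 and miR-98 family listed by RefSeq share it, and their levels were not analysed here.
let-7a-5p: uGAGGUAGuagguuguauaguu
let-7d-5p: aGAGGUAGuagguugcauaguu
let-7g-5p: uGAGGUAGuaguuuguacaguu

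Igf2 and Mdk lay above the median of their array on all 6 arrays and Hmga2 on 5, and Afp, Gpc3, Dlk1, Igf2bp3 and Lin28b lay below it on all 6 arrays. None of the 8 genes passed rank products, the test named in the study's methods, or limma over all probe sets (smallest adjusted p = 0.891 and 0.932, respectively). Rank products called 0.0405% of all probe sets, 9 in number (0.0045% higher and 0.036% lower), and limma called 0%. The study reported a longer list of upregulated genes from these arrays, which the rank products run here did not reproduce. The counts given here are therefore not the study's own calls. Without adjustment, 0 of the 8 had a p under 0.05 by rank products, by limma or by the methods' t-test, against 5.7%, 5.08% and 4.77% of all probe sets. Mean levels were higher in AAV-PIK3CD for 7 of the 8 genes, where 47.8% of all probe sets had a higher mean. The median difference of the 8 was 0.12 (log2), beside -0.01 over all probe sets, and the median size of a difference was 0.12, beside 0.10 over all probe sets. In bulk tissue a higher share of cells that express a gene and more RNA per cell cannot be told apart.

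**Figure D1:**
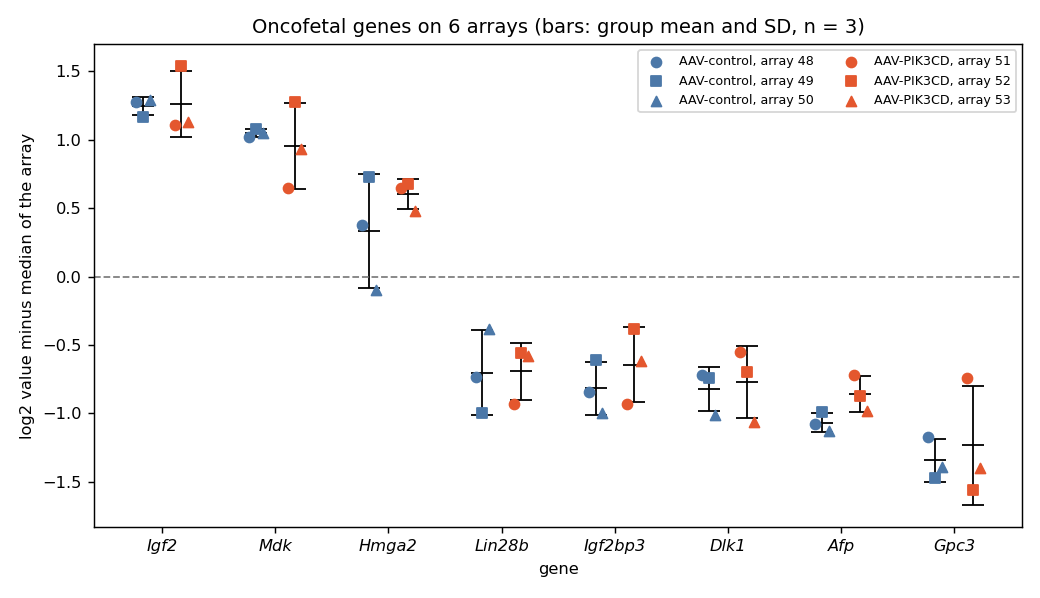
Log2 value minus the median of the same array (y axis) for the 8 measured genes (x axis), with a point for each array, blue for AAV-control and red for AAV-PIK3CD, and bars for the group mean and SD (n = 3). Igf2 and Mdk lie above the dashed median line on all 6 arrays, Hmga2 on 5, and the other 5 genes on none.

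Afp, the fetal plasma protein used as a tumour marker, was the gene of the set whose groups did not overlap. It read 3.74, 3.82 and 3.68 in AAV-control and 4.15, 3.97 and 3.85 in AAV-PIK3CD. Every AAV-PIK3CD array thus lay above every control, but the gap between the nearest arrays of the groups was smaller than the spread within AAV-PIK3CD (SD 0.15). The difference was 0.24 (SE 0.13), or 1.18-fold, with a 95% interval from -0.03 to 0.52 (2-sided exact permutation p = 0.1, the smallest that 3 against 3 allows, adjusted p = 0.982 by rank products and 0.932 by limma). Groups did not overlap in 1 of the 8 genes (12.5%) and in 9.44% of all probe sets (4.47% higher and 4.97% lower). The Afp level stayed 1.07 ± 0.07 below the array median in AAV-control and 0.86 ± 0.13 below it in AAV-PIK3CD (SD, n = 3). The arrays carry no detection call, so a level below the median cannot be told from background.

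The genes beside Afp at the locus are plasma proteins of the adult liver. Alb, or albumin, read 13.27, 13.25 and 13.19 in AAV-control and 13.30, 13.27 and 13.25 in AAV-PIK3CD. These values lie at the top of the array scale, whose highest value was 13.3, so a difference in Alb may be understated. Afm, a vitamin E binding protein of plasma, read 11.03 ± 0.19 and 10.94 ± 0.06 (SD, n = 3 each). Both differed by less than the spread between arrays.

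Igf2, the fetal insulin-like growth factor, read 6.10, 5.98 and 6.10 in AAV-control and 5.98, 6.38 and 5.96 in AAV-PIK3CD. Array 52 was the highest and the other AAV-PIK3CD arrays were at or below the lowest control. The groups differed by 0.05 (SE 0.14), with a 95% interval from -0.27 to 0.36 (exact permutation p = 1). Without array 52 the difference was -0.09.

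Mdk, or midkine, is a heparin-binding growth factor of the embryo. It read 5.84, 5.89 and 5.86 in AAV-control, the narrowest range among the 8 genes, and 5.52, 6.12 and 5.76 in AAV-PIK3CD. The AAV-PIK3CD arrays lay on both sides of the controls, and the difference was -0.06 (SE 0.15, 95% interval -0.40 to 0.28, exact permutation p = 0.7). Without array 51 it was 0.08.

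Dlk1, a membrane protein of hepatoblasts related to Notch ligands, read 4.10, 4.07 and 3.80 in AAV-control and 4.32, 4.14 and 3.77 in AAV-PIK3CD. The highest and the lowest array of all both belonged to AAV-PIK3CD, and the groups overlapped. The difference was 0.09 (SE 0.16, 95% interval -0.27 to 0.44, exact permutation p = 0.6), and it was -0.035 without array 51 and -0.01 without array 50.

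Gpc3, a heparan sulphate proteoglycan of the cell surface that serves as a marker of hepatocellular carcinoma, read 3.65, 3.34 and 3.42 in AAV-control and 4.13, 3.28 and 3.43 in AAV-PIK3CD. Array 51 stood above the other 5 arrays, which ranged from 3.28 to 3.65, and array 52 was the lowest. The difference was 0.14 (SE 0.20, 95% interval -0.31 to 0.59, exact permutation p = 0.8). Without array 51 it was -0.12.

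Hmga2, an architectural chromatin protein of embryonic cells, had the highest mean difference of the set. It read 5.20, 5.54 and 4.71 in AAV-control and 5.52, 5.52 and 5.31 in AAV-PIK3CD. All 3 AAV-PIK3CD arrays lay above the control mean but 0 of them above control array 49, so the groups overlapped. The difference was 0.30 (SE 0.19), or 1.23-fold, with a 95% interval from -0.12 to 0.72 (exact permutation p = 0.4, adjusted p = 0.891 by rank products). It rested in part on control array 50, without which it was 0.08, and it was 0.50 without array 49.

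Lin28b, the blocker of let-7 maturation, read 4.09, 3.81 and 4.43 in AAV-control and 3.94, 4.28 and 4.25 in AAV-PIK3CD. The controls alone spanned 0.62 and enclosed all AAV-PIK3CD arrays. The difference was 0.05 (SE 0.17, 95% interval -0.33 to 0.42, exact permutation p = 0.9), and leaving out single arrays gave -0.10 to 0.21.

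Igf2bp3, a fetal protein that binds and stabilises Igf2 and other transcripts, read 3.98, 4.20 and 3.81 in AAV-control and 3.94, 4.46 and 4.21 in AAV-PIK3CD. Arrays 52 and 53 lay above the controls and array 51 lay among them. The difference was 0.21 (SE 0.16, 95% interval -0.15 to 0.56, exact permutation p = 0.4), and it ranged from 0.08 without array 52 to 0.34 without array 51.

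**Figure D2:**
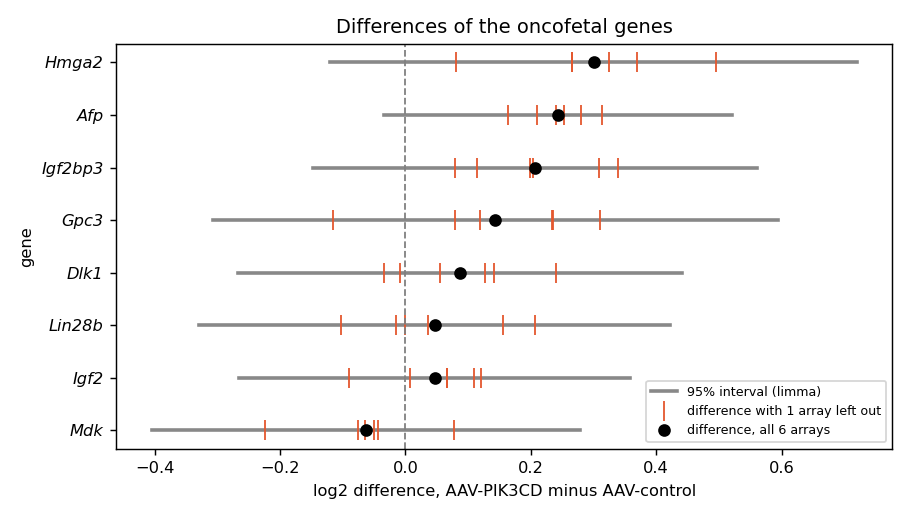
Log2 difference of AAV-PIK3CD minus AAV-control (x axis) for each of the 8 genes (y axis), with the 95% interval from limma as a grey bar, the difference over 6 arrays as a black point and the differences with 1 array left out as red ticks. All 8 intervals include 0, and the ticks of Gpc3, Dlk1, Lin28b, Igf2 and Mdk fall on both sides of 0 or on it.

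Across the 8 genes the upper ends of the intervals reached at most 0.72, or 1.65-fold, which was that of Hmga2, and the lower ends at most -0.40, that of Mdk. On the array scale these bound the group differences that the 6 arrays allow. Over the 6 arrays the genes spanned 0.42 (Igf2) to 0.85 (Gpc3), where the median over all probe sets was 0.46. The sign of the difference was the same with each array left out for 3 genes, Afp, Hmga2 and Igf2bp3.

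The genes did not share an order of arrays. Afp, Dlk1 and Gpc3 were highest on array 51, and Igf2, Igf2bp3 and Mdk on array 52, while Lin28b was highest on array 50 and Hmga2 on array 49. Of all probe sets 20.4% were highest on array 51 and 13.1% on array 52. Array 51 also carried transcripts of other tissues. The summed signal of 9 pancreatic acinar markers (log2) read 12.87 there and 7.34 to 7.59 on the other arrays, and that of 8 skeletal muscle markers 8.22 against at most 7.25, with 9 of 9 and 8 of 8 markers highest on array 51. Of the muscle markers, Myh4 and Mylpf lay below the array median on all arrays. Ckm and Actn3 were highest by little, at 4.92 and 4.94 against at most 4.69 and 4.87. Islet markers did not stand out, at 6.82 on array 51 and 6.74 to 6.95 on the others, with 4 of 6 below the array median on all arrays (Gcg, Ppy, Iapp and Chga). Mesothelial markers, all 5 of which lay below the median on all arrays, read 6.10 on array 51 and 6.15 to 6.26 on the others. The summed signal of adipose markers was highest on control array 48, at 7.80 against at most 7.10 on the others. What part the transcripts of other tissues have in the levels of Afp, Dlk1 and Gpc3 on array 51 was not tested. Without array 51 Afp differed by 0.16, Dlk1 by -0.035 and Gpc3 by -0.12, and the median over the 8 genes was 0.13.

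**Figure D3:**
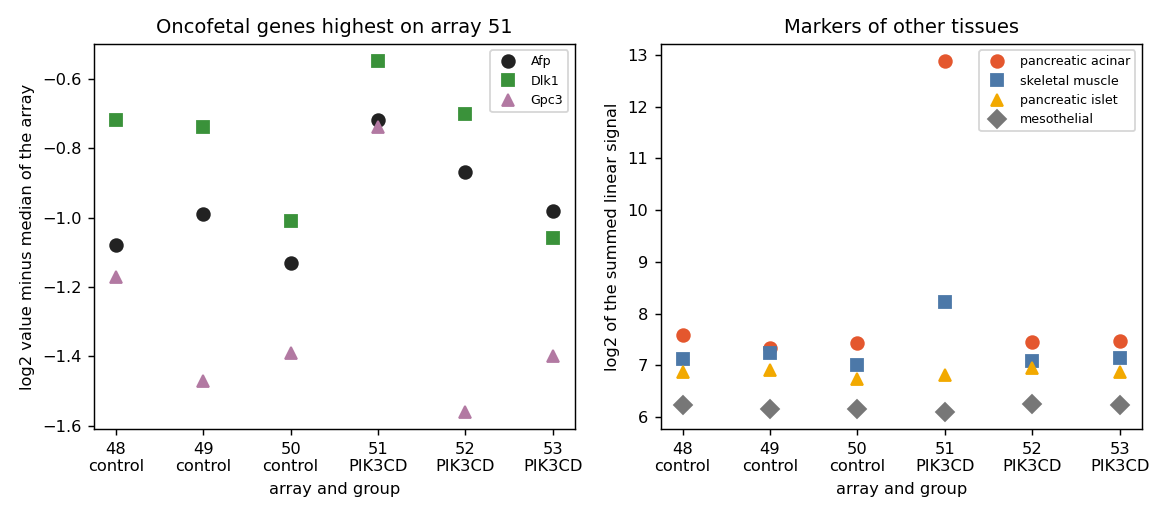
Left, log2 value minus the array median for Afp, Dlk1 and Gpc3 on each array (x axis). Right, log2 of the summed linear signal of marker lists of 4 tissues on the same arrays, where acinar and muscle markers are highest on array 51 (12.87 and 8.22) and islet and mesothelial markers are not.

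Genes that act with the 8 were read from lists of partners, 98 of 114 genes being measured. By rank products and by limma over all probe sets 0 of the 98 passed in either direction. Without adjustment, 11 had a rank products p under 0.05 (11.2%, against 5.7% of all probe sets), 5 with a higher and 6 with a lower mean, and 8 of the 98 had a limma p under 0.05, against 5.08% of all probe sets. The lists were chosen with earlier results of these data known. The 11 include Foxa1 and Igfbp1, which the study listed as regulated on these arrays, so their share is not independent evidence. Rank products p-values also do not measure the spread between arrays. Among the 11, Onecut1, named after its values were seen, read 9.74, 9.21 and 6.81 in AAV-control and 8.12, 8.84 and 8.15 in AAV-PIK3CD (exact permutation p = 0.9). Lin28a, Foxa1 and Cdkn1c were those of the 11 whose groups did not overlap. Groups did not overlap in 10 of the 98, or 10.2%, beside 9.44% of all probe sets.

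Of the LIN28 and let-7 list 11 of 14 genes were measured and 0 passed. Lin28a, the paralogue of Lin28b known from pluripotent cells, read 5.13, 5.26 and 5.22 in AAV-control and 5.91, 5.51 and 5.52 in AAV-PIK3CD. The lowest AAV-PIK3CD array lay above the highest control, with a difference of 0.44 (SE 0.14, exact permutation p = 0.1, adjusted p = 0.747 by rank products and 0.932 by limma), which was 0.31 without array 51. Trim71, a stem cell RNA-binding protein and let-7 target, read 3.97, 4.11 and 4.41 against 4.37, 4.75 and 4.66, a difference of 0.43 (SE 0.15, adjusted p = 0.673 by rank products). Its levels lay below the array median on all 6 arrays, and the groups overlapped. Myc, a growth factor-induced transcription factor, read 4.76 ± 0.17 and 4.53 ± 0.60 (SD, n = 3 each).

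The list of the Afp locus and its regulators holds the neighbours Alb and Afm beside the regulators. Of its 17 genes 13 were measured and 0 passed, with a median difference of -0.17. A higher mean in AAV-PIK3CD was found for 1 of the 13, Alb, where 47.8% of all probe sets had a higher mean. The difference of Alb was 0.04, at the top of the array scale. Zhx2, which is known to repress Afp in the liver after birth, read 7.30, 7.67 and 7.68 in AAV-control and 6.95, 7.06 and 7.49 in AAV-PIK3CD. The groups overlapped through array 53, and the difference was -0.38 (SE 0.17, exact permutation p = 0.2, adjusted p = 0.814 by rank products and 0.932 by limma). Foxa1, a pioneer factor that opens Afp and Alb chromatin, read 6.15, 6.01 and 5.80 against 5.23, 5.48 and 5.37, and every AAV-PIK3CD array lay below every control. It differed by -0.63 (SE 0.13, exact permutation p = 0.1, adjusted p = 0.297 by rank products and 0.932 by limma), with a range of -0.72 to -0.55 when single arrays were left out. Its paralogue Foxa2 differed by -0.25 (SE 0.12) with groups that did not overlap either, and Foxa3 by -0.29 (SE 0.16) with groups that did. Without array 53 Foxa3 differed by -0.145, and without array 51 by -0.41. The 3 Foxa genes were named after their values were seen, and the study itself listed Foxa1 as regulated on these arrays, so its values are not independent evidence.

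In the IGF list 15 of 16 genes were measured and 0 passed. Igf2r, the receptor that takes up IGF2 for degradation, read 6.98, 7.58 and 7.77 in AAV-control and 6.32, 6.99 and 7.41 in AAV-PIK3CD. The groups overlapped, and the difference of -0.54 (SE 0.27, adjusted p = 0.434 by rank products) was -0.24 without array 51. The signalling receptor Igf1r read 3.80 ± 0.40 and 3.82 ± 0.22, below the array median on all 6 arrays, and the adult growth factor Igf1 read 12.33 ± 0.09 and 12.28 ± 0.04 (SD, n = 3 each). Igfbp1, an insulin-repressed binding protein that the study listed as regulated on these arrays, gave -0.52 (SE 0.35), and between -0.94 and -0.20 when a single array was dropped.

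Igf2 and Dlk1 are imprinted, that is, expressed from the copy of 1 parent, and 11 of 16 listed genes of the imprinted growth network were measured, of which 0 passed. Cdkn1c, a cell cycle inhibitor of this network, read 5.64, 5.67 and 5.47 in AAV-control and 6.46, 5.99 and 5.88 in AAV-PIK3CD without overlap. It differed by 0.52 (SE 0.16, exact permutation p = 0.1, adjusted p = 0.609 by rank products), or by 0.34 without array 51, and was named after its values were seen. Plagl1, a transcription factor that activates several imprinted genes, read 3.43 ± 0.37 and 3.62 ± 0.19 (SD, n = 3 each), below the array median on all 6 arrays. H19 and Meg3 were not analysed here. Mir675, the microRNA gene within H19, read 3.31 ± 0.22 and 3.22 ± 0.10 (SD, n = 3 each) and was named after its values were seen.

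Partners of Gpc3 and Mdk showed no call either. Of the glypican and heparan sulphate list 12 of 13 genes were measured, 9 with a lower and 3 with a higher mean, where 47.8% of all probe sets had a higher mean. Gpc4, another glypican, read 7.91 ± 0.23 and 7.78 ± 0.07, Gpc1 read 5.31 ± 0.16 and 5.13 ± 0.27, and the sulphatase Sulf2 read 5.13 ± 0.43 and 5.41 ± 0.14 (SD, n = 3 each). Of the midkine list 12 of 13 were measured. Ptn, the only close relative of Mdk, read 5.16 ± 0.18 and 5.30 ± 0.24, and the midkine receptors Sdc1 and Lrp1 read 9.29 ± 0.04 and 9.21 ± 0.02, and 9.60 ± 0.14 and 9.64 ± 0.05 (SD, n = 3 each). Sdc1 did not overlap between the groups, at a difference of -0.08.

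Other oncofetal and progenitor genes numbered 25 measured of 27, with 0 past the test and 19 with a higher mean. Of all probe sets 47.8% had a higher mean, and the median difference of the list was 0.05. Sall4, a fetal liver transcription factor that returns in aggressive carcinoma, read 5.14, 4.95 and 4.50 in AAV-control and 4.91, 4.93 and 4.91 in AAV-PIK3CD. The AAV-PIK3CD arrays lay within the controls. Sox9, of bile duct and progenitor cells, read 6.26 ± 0.85 and 6.21 ± 0.20, and Prom1 read 3.72 ± 0.03 and 3.65 ± 0.13 (SD, n = 3 each). Prom1 lay below the array median on all arrays. Sox11, an embryonic transcription factor named after its values were seen, read 5.34 ± 0.14 and 5.63 ± 0.04 without overlap, a difference of 0.29 (SE 0.12, exact permutation p = 0.1, adjusted p = 0.936 by rank products). Fetal erythroid markers, read because the fetal liver makes blood, had a summed signal (log2) of 6.79 to 6.89 in AAV-control and 6.81 to 7.11 in AAV-PIK3CD, with 4 of 6 below the array median on all arrays, among them the embryonic globins Hbb-y and Hbb-bh1.

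**Figure D4:**
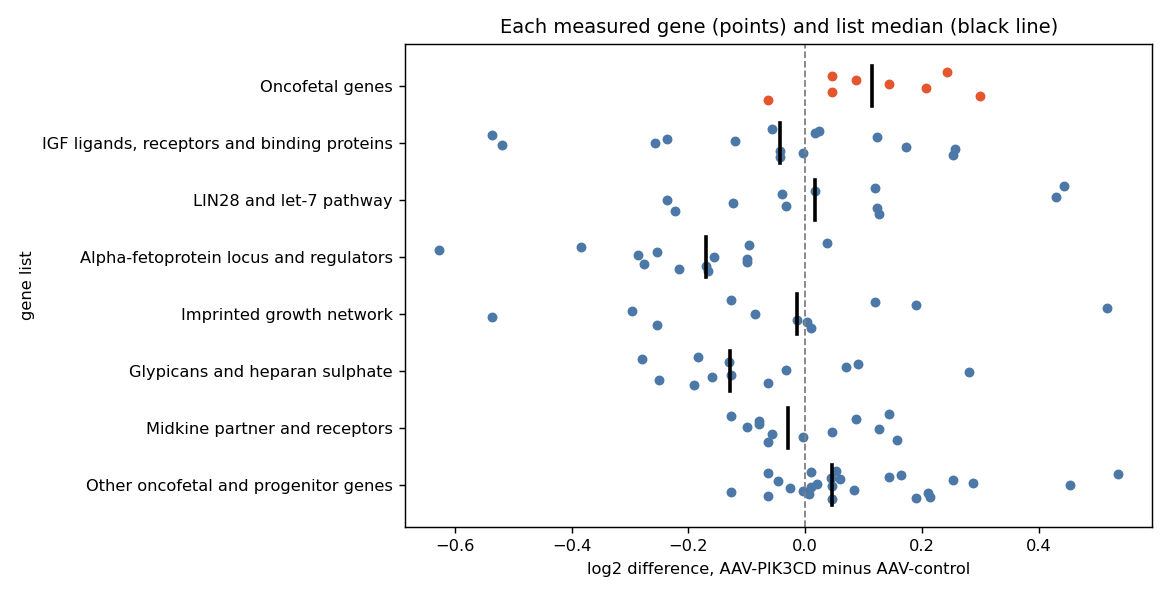
Log2 difference of AAV-PIK3CD minus AAV-control (x axis) for each measured gene (points) of the 8 oncofetal genes (red) and of 7 partner lists (blue), with the list median as a black line. List medians run from -0.17 for the Afp locus and regulators to 0.12 for the oncofetal genes.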

How the data were processed

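Total RNA (100 ng) was labelled and hybridised to Clariom S mouse arrays. The deposited log2 values were normalised by the authors with RMA, which corrects background, equalises the arrays and summarises each probe set. The software version and genome build are not given in the sources used here. All 22206 probe sets were used without a filter, and 19572 carried a gene symbol. The symbol was RefSeq's for the gene identifier of the probe set, or else that of the probe annotation. Array medians ran from 4.81 to 4.87. Arrays have no depth, and their number, 3 per group, limits the precision. The labels call the arrays individual samples. The p-values of limma, the t-test and the permutation test measure the spread between these samples. Those of rank products come from shuffles of the gene order within arrays and do not measure that spread.

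Groups came from the labels. Rank products (9 pairs, 1000 shuffles, 2-sided) was run beside limma 3.58.1 in R 4.3.3, both with Benjamini-Hochberg adjustment over all probe sets at 0.05. The study's methods name rank products but not its settings, and the run here called fewer genes higher than the study reported. Standard errors and 95% intervals are limma's. Single genes had a 2-sided exact permutation test. Both tests were checked on simulated data. There, rank products made more false calls than its threshold allows when probe sets varied unequally, and it kept to the threshold when they varied equally. With unequal spread and a log2 change of 0.5, rank products recovered 2 of 50 changed probe sets and limma 6 of 50. At a change of 1 they recovered 46 and 38 of 50. The highest difference among the 8 genes was 0.30, so the absence of calls does not show that these genes were unchanged. Promoter and microRNA sequences are RefSeq's (GRCm38.p6). Python 3.11.15 was used for the rest.

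The 10 genes, the partner lists and the marker lists were chosen with earlier results of these data known. Named genes were the 10 genes, Pik3cd, fixed anchors of each list and any list gene past a test. For any other gene outside the marker lists whose levels are given, the text says that it was picked with its values in view. Apart from anchors, single genes of the marker lists were also picked with their values in view. Of the anchors, Epcam, Nanog and Pou5f1 are given in the closing section, and Zbtb20 was not analysed here. Alternatives were limma, the methods' t-test, quantile normalization, median centring, a filter that removes the dimmest 25% or 50%, a single probe set for each symbol, and dropping each array once.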

Additional observations from a re-analysis of the deposited data

How the results depend on the processing

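The count of oncofetal genes called was 0 under every alternative run, with limma, the methods' t-test with or without adjustment, quantile normalization, median centring, both filters on dim signal, a single probe set for each symbol and each array dropped. All 8 genes and 98 partner genes were tested in each, except that the filter at 50% left 3 of the 8 (Igf2, Hmga2 and Mdk) and 66 of the partners, and the filter at 25% left 94 of the partners. The count of partner genes called was 0 under all of these except the methods' t-test without adjustment, which gave 8 of 98, against 4.77% of all probe sets. Median centring shifts all probe sets of an array alike, so it could not change a rank products p. Taking a single probe set for each symbol could not change the values of the 8 genes, which have 1 probe set each. Dropping 1 array at a time moved the difference of Lin28b between -0.10 and 0.21, and gave from -0.035 to 0.24 for Dlk1, from -0.12 to 0.31 for Gpc3, from -0.22 to 0.077 for Mdk and from -0.09 to 0.12 for Igf2, so their direction is not settled. The cause was not tested. Afp ranged from 0.16 to 0.31, Igf2bp3 from 0.08 to 0.34 and Hmga2 from 0.08 to 0.50. No paired analysis was possible because the groups share no replicate number.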

Other observations

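Among fixed anchors of the lists, the pluripotency factors Nanog and Pou5f1 read 5.12 ± 0.04 and 2.91 ± 0.20 in AAV-control and 5.33 ± 0.03 and 3.10 ± 0.20 in AAV-PIK3CD, and the progenitor marker Epcam read 3.70 ± 0.24 and 4.24 ± 0.49 (SD, n = 3 each). Pou5f1 and Epcam lay below the array median on all arrays. The groups of Nanog did not overlap, at a difference of 0.21 (SE 0.11, exact permutation p = 0.1, adjusted p = 1 by rank products and 0.932 by limma). Those of Epcam overlapped, with 4.80 on array 53 and 3.94 and 3.98 on arrays 51 and 52, and its difference of 0.54 (SE 0.22, adjusted p = 0.438 by rank products) was 0.26 without array 53. Genes of the lists whose groups did not overlap, beside those described above, were Bex1 (difference 0.21), a gene of embryonic and endocrine tissue, the microRNA-processing enzyme Dicer1 (-0.22, or -0.125 without array 53) and the imprinted gene Ndn (-0.25), all named after their values were seen and with adjusted p values by rank products of 1, 0.989 and 0.967. Bex1 and Ndn lay below the array median on all arrays. Adipose markers summed to 6.84 to 7.80 (log2) in AAV-control and 6.70 to 7.10 in AAV-PIK3CD, hepatic stellate markers to 9.06 to 9.23 and 8.91 to 9.27, and bile duct markers to 6.72 to 7.63 and 7.01 to 7.43. The adipose value of 7.80 was that of control array 48 alone. Adipoq (5.20), Retn (5.99) and Pparg (6.74) were highest on that array, and Plin1 and Lep were not.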
